A study of Cucurbita moschata with 6 samples.

Results

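The genes described here are the xyloglucan endotransglucosylase/hydrolase genes (XTH genes) of pumpkin, Cucurbita moschata, measured in the seedling hypocotyl, the stem below the cotyledons. They are all genes of the deposited table whose product name holds "xyloglucan endotransglucosylase", 46 of 32205 genes. Each name carries a number, such as 6 or 28, and a gene is called here by that number with its identifier. Poly(A) RNA was sequenced in 6 libraries, 3 titled SCK and 3 titled SR, from seedlings of the same seed source taken once the cotyledons had opened. The growth room gave 14 h of light at 28 °C, then 10 h without light at 18 °C. The labels do not spell out SCK or SR. The series names a treatment and a control, and CK often marks controls in crop work, so SCK was taken as the control. A far-red light treatment of 120 s is written on the labels of both groups, and the series is about far-red light and hypocotyl elongation. Whether the libraries of a group stem from separate plants is not stated, so the p-values rest on a spread between libraries that may be technical.

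Xyloglucan is the hemicellulose that coats and ties cellulose microfibrils in the primary wall of dicots. XTH enzymes are secreted into the wall, cut a xyloglucan chain and either join the cut end to another chain (the transferase activity) or to water (the hydrolase activity). By these reactions they loosen, strengthen or extend the network while a cell grows, and new xyloglucan is built into it. The hypocotyl grows mainly by cell elongation, and far-red-rich light is known to promote that elongation in many seedlings. In Arabidopsis, subfamily I holds the proteins numbered 1 to 11 and subfamily II those numbered 12 to 26. Subfamily IIIA holds 31 and 32, the group in which hydrolase activity was found, and subfamily IIIB holds 27 to 30 and 33. The pumpkin genes were sorted by the number in their names alone. The sources used here do not say how names were assigned, and a number such as that of the genes named 2-like need not follow the Arabidopsis numbering.

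By these numbers 16 genes fell in subfamily I, 15 in II, 7 in IIIA and 8 in IIIB, on 16 chromosomes. The deposited annotation gives 41 of the 46 the transferase term, and the other 5 carry no term of any kind. The term for xyloglucan-specific endoglucanase, a hydrolase, stands on 2 genes, both of subfamily IIIA. The enzyme number of xyloglucan transferase stands on 13 genes, all of subfamily II. The gene models span a median of 1630 bases, from 575 to 10045. Positions below are those of the deposited table, and the sources used here do not name its genome build.

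Levels are deposited FPKM, fragments scaled for gene length and library size, which can be compared between genes. Genes that reached an FPKM of 1 in 3 or more libraries were tested, which left 33 XTH genes. Of these, XTH30 (CmoCh19G002280) reached the minimum only through the SCK libraries. Of the 13 others, 5 had a count of 0 in every library and 8 had counts, with a highest FPKM of 1.20 in any library. A count of 0 allows up to 3 read pairs, taken as 12 deposited counts, in a library. Subfamily II held 9 of these 13 genes, 4 of them at 0 in all libraries. The sum of all XTH genes was 942, 1193 and 1109 FPKM in SCK, in the order of the replicate numbers used throughout, and 935, 1898 and 1794 FPKM in SR. SR replicate 1 thus lay just below the SCK libraries and the other SR libraries far above them. The log2 ratio of the mean sums, SR over SCK, was 0.51. Without 1 library it ran from 0.34 (SR replicate 2 left out) to 0.77 (SR replicate 1 left out). With FPKM divided by TMM factors, which scale libraries to a common centre, it was 0.37.

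The family was uneven. The 6 most abundant genes made up 58.4% to 65.1% of its FPKM in each library. These were, by mean FPKM over all libraries, XTH22-like on chromosome 10 (259), XTH28 on chromosome 4 (204), XTH6 (118) and XTH7 (92.6) on chromosome 4, XTH6 on chromosome 16 (85.7) and XTH23 on chromosome 10 (62.3). The spread between libraries of a group was wide for several of them, so that neighbours in this order are not separated. Below them, XTH32 on chromosome 14 and XTH9-like on chromosome 2 stood at 58.3 and 57.8 FPKM, and the median of all 46 genes was 6.52 FPKM.

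**Figure D1:**
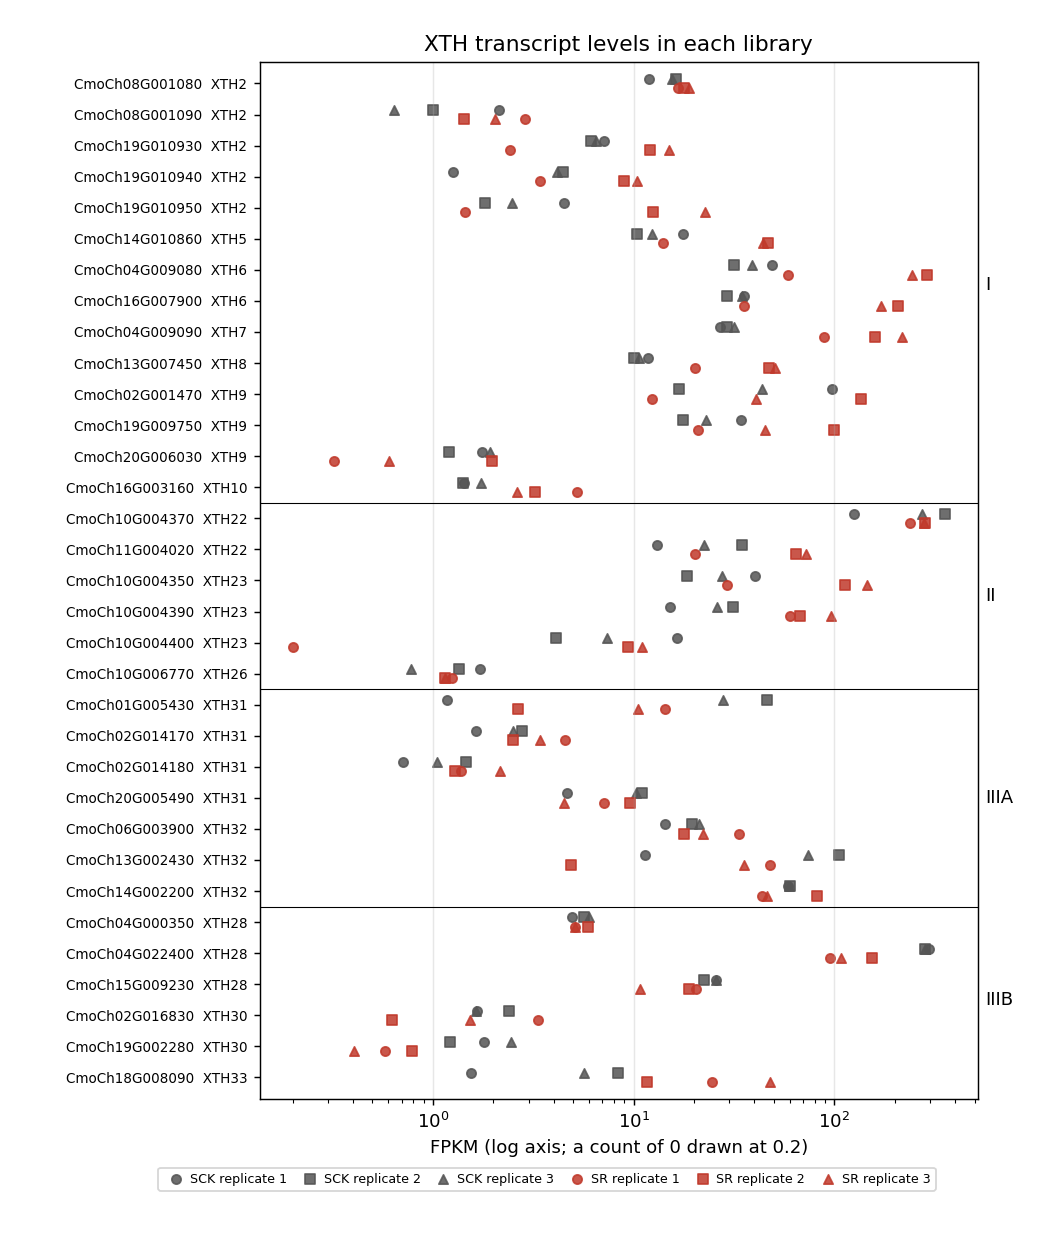
FPKM of the 33 tested XTH genes in each library, on a log axis, with SCK in grey and SR in red and 1 marker shape per replicate number; lines separate the subfamilies I, II, IIIA and IIIB taken from the numbers in the names. The count of 0 of CmoCh10G004400 in SR replicate 1 is drawn at the left edge. For many genes of subfamily I, SR replicate 1 (red circles) lies beside the SCK points while SR replicates 2 and 3 lie to their right, as for XTH6 on chromosome 16 at 35.3, 208 and 171 FPKM.

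SR was set against SCK, taken as the control, to find hypocotyl transcripts that differ between these groups. Some facts of the whole table touch the results that follow. Totals ran from 52300725 to 72356397 deposited counts, and 1 read pair may be worth about 4 of them. In 57.7% of tested genes, and in 24 of 33 XTH genes, the value of SCK replicate 3 fell between those of the other SCK libraries. Without SCK replicate 3, edgeR called 0 of 23509 genes (5558 at an unadjusted p under 0.05), limma 8 and DESeq2 3637. SR replicate 1 was the lowest SR library in 44.4% of all tested genes and in 19 of 33 XTH genes. SR replicate 2 was the highest SR library in 44.7% of all tested genes and in 12 of 33 XTH genes.

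Markers of tissues that a hypocotyl sample can hold also moved between the groups. Of all tested genes, 7.2% rose and 7.16% fell at an adjusted p under 0.05 by edgeR. Green tissue markers, chlorophyll a-b binding proteins, had 0 rises and 10 falls (41.7%) among 24 tested genes. Their summed FPKM was 6532 to 7688 in SCK and 4189 to 5803 in SR. Dividing-cell markers (B-type cyclins and histone H4) had 4 rises (44.4%) and 0 falls among 9, with sums of 96.3 to 112 and 138 to 155 FPKM. Of 11 tested xylem markers, 2 rose (18.2%) and 0 fell, with sums of 64.9 to 77.0 and 85.2 to 132.3 FPKM. Phloem markers had 6 rises (26.1%) and 0 falls among 23. Their sums overlapped, at 3489 to 3754 FPKM in SCK and 3299 to 5688 in SR, with SR replicate 1 the highest. At a count of 0 in all libraries were 1 of 27 green tissue, 3 of 14 dividing-cell, 0 of 19 xylem and 0 of 25 phloem markers. The part of these tissues in the XTH results was not tested. In bulk tissue, fewer cells of a type and less RNA per cell cannot be told apart.

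Among the 33 tested XTH genes, 4 rose and 2 fell in SR relative to SCK at an adjusted p under 0.05 (edgeR's quasi-likelihood test with Benjamini-Hochberg adjustment over all tested genes). The rises were XTH6 and XTH7 on chromosome 4, XTH8 on chromosome 13 and XTH23 on chromosome 10. The falls were XTH28 on chromosome 4 and XTH30 on chromosome 19. XTH30 entered the test only through SCK, the group where it was higher, so its fall is no independent result. At an FPKM of at least 5 it was not tested and 1 fall remained. With XTH30 counted, the 4 rises and 2 falls are 12.1% and 6.06% of the tested XTH genes. Of all tested genes 7.2% rose and 7.16% fell (14.4% in either direction), so the shares are near the background. The SR values all lay above the SCK values in 7 XTH genes (21.2%, against 27.9% of all genes) and all below in 3 (9.1%, against 12.7%). The median log2 fold change was 0.42 over the tested XTH genes and 0.01 over all tested genes. Without TMM factors, which scale libraries to a common centre, these were 0.57 and 0.14.

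By subfamily, the 14 tested genes of subfamily I held 3 rises (21.4%, against 7.2% of all tested genes) and 0 falls. Their median log2 fold change was 1.10, and 13 values were positive, as were 12054 of 23509 over all tested genes. The 6 of subfamily II held 1 rise (16.7%) and 0 falls, with a median of 0.49. The 7 of subfamily IIIA held 0 rises and 0 falls, with a median of -0.20, and 0 of them had an unadjusted p under 0.05. The 6 of subfamily IIIB held 0 rises and 2 falls (33.3%, against 7.16% of all tested genes), with a median of -0.44. The falls include that of XTH30. Shares of sets this small rest on few calls. DESeq2 called 7 further XTH genes and edgeR without TMM factors 1. Without SCK replicate 3, edgeR called 0 XTH genes (9 at an unadjusted p under 0.05), limma 0, and DESeq2 all 6 and a further 2. Without SR replicate 1, edgeR called 9 rises and 1 fall, and without SR replicate 3, 1 rise and 1 fall. Without SCK replicate 2 it called 2 rises and 2 falls, and without SCK replicate 1, 3 rises and 1 fall. A test of the difference between subfamilies was not made.

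**Figure D2:**
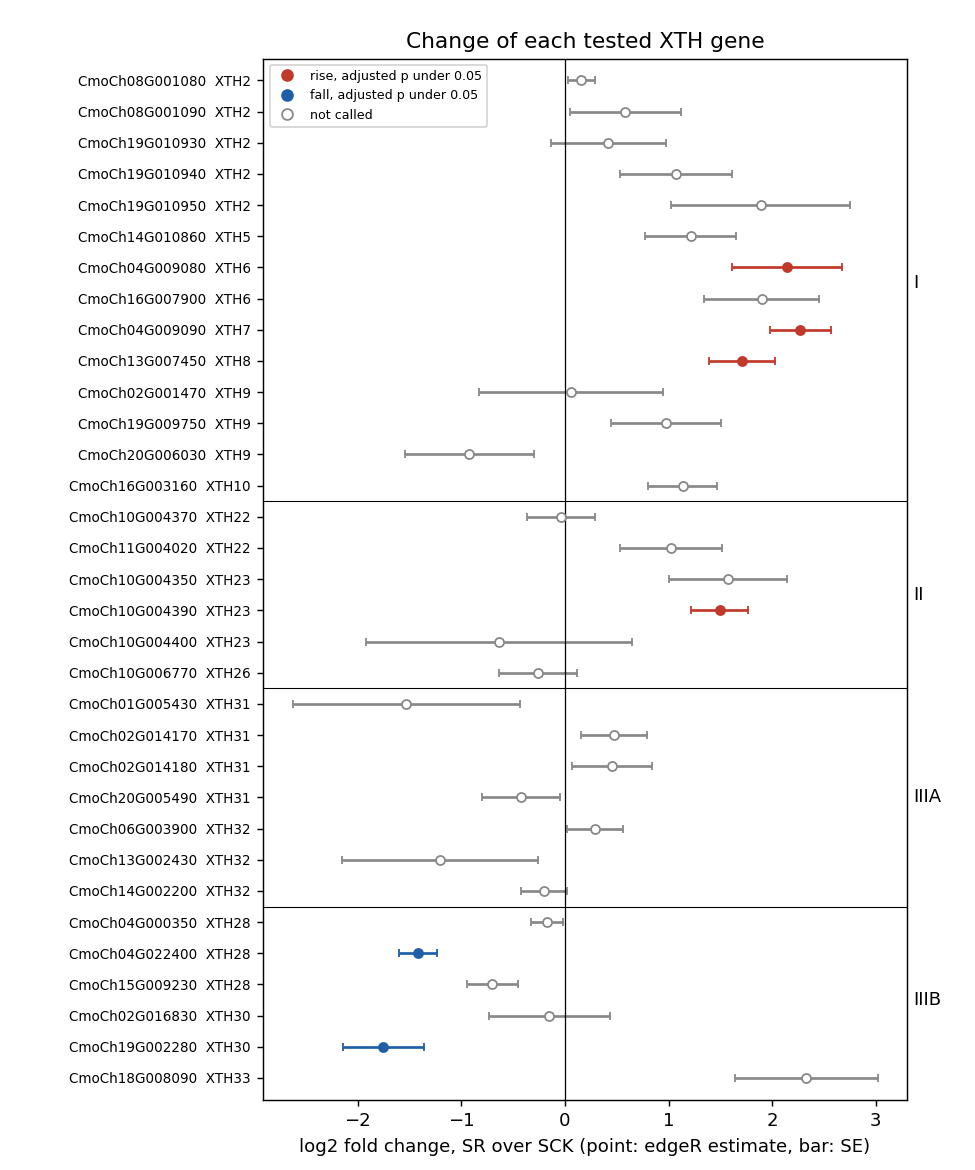
Log2 fold change of SR over SCK for the 33 tested XTH genes, with the edgeR estimate as a point and its SE as a bar; filled red points rose and filled blue points fell at an adjusted p under 0.05, and open points were not called. In subfamily I, 13 of 14 points lie right of 0, and in IIIB, 5 of 6 lie left of it, with XTH33 at 2.33 as the exception. Of all 23509 tested genes, 12054 had a positive value.

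Summed FPKM shows the same genes by their weight. Subfamily I summed to 303, 177 and 228 FPKM in SCK and to 283, 1046 and 886 FPKM in SR. SR replicate 1 was inside the SCK range, and the other SR libraries were above it. Subfamily IIIB summed to 333, 322 and 326 FPKM in SCK and to 150, 193 and 174 in SR, and these groups did not overlap. XTH28 on chromosome 4 gave most of both sums. The share of IIIB in the family's FPKM was 26.98% to 35.4% in SCK and 9.7% to 16.0% in SR. Subfamily II summed to 213, 448 and 359 FPKM and then to 350, 539 and 608 FPKM, with overlap. Subfamily IIIA was at 92.7, 247 and 197 FPKM in SCK and at 152, 120 and 124 in SR, inside the SCK range.

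**Figure D3:**
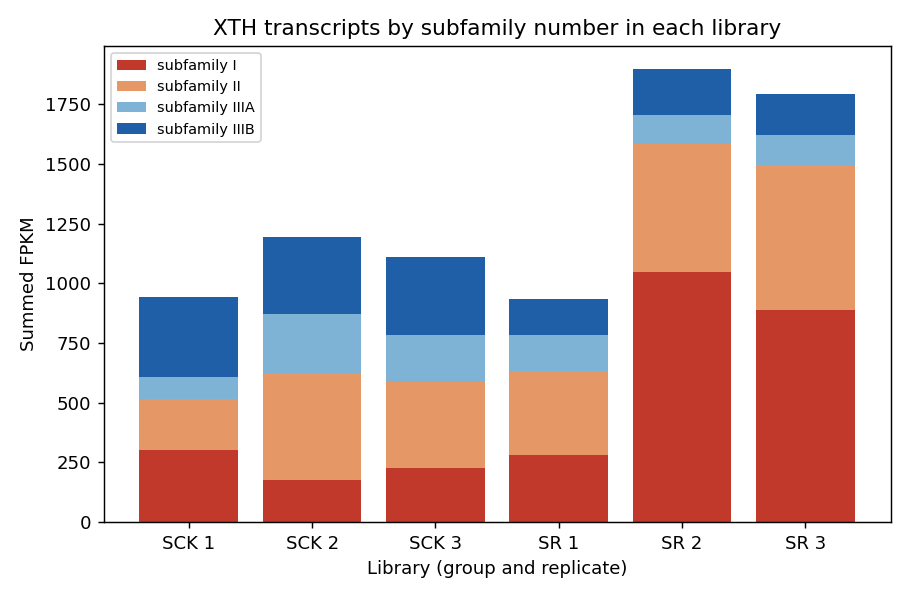
Summed FPKM of all 46 XTH genes in each library, stacked by subfamily. SCK replicates 1 to 3 and SR replicate 1 reach 935 to 1193 FPKM and SR replicates 2 and 3 reach 1898 and 1794, while the IIIB layer is thinner in each SR library than in any SCK library.

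In subfamily I, XTH7 and XTH6 on chromosome 4, which lie next to each other, both rose. XTH7 (CmoCh04G009090, chromosome 4, 4575863 to 4577254, plus strand) was at 26.98, 29.2 and 31.5 FPKM in SCK and at 89.1, 160 and 218 FPKM in SR. The groups did not overlap, and the lowest SR library was well above the SCK libraries. Its log2 fold change was 2.27 ± 0.30 SE (adjusted p = 0.0119 by edgeR, and 0.0749 without SCK replicate 3). XTH6 (CmoCh04G009080, 4571033 to 4572558, minus strand) was at 48.9, 31.6 and 39.1 FPKM in SCK and at 58.9, 289 and 244 FPKM in SR. Here SR replicate 1 lay just above SCK replicate 1. The log2 fold change was 2.14 ± 0.53 SE (adjusted p = 0.0414 by edgeR). That call was lost without any single library other than SR replicate 1 (adjusted p = 0.0757 to 0.144), and by limma (0.0587). Without SR replicate 1 its adjusted p was 0.00711.

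These neighbours stand back to back, 3304 bases apart, transcribed away from each other, with no other gene of the table between them. Together they made up 5.1% to 8.1% of the family's FPKM in SCK and 15.8% to 25.7% in SR. The FPKM ratio of XTH6 to XTH7 was 1.81, 1.08 and 1.24 in SCK and 0.66, 1.80 and 1.12 in SR, so the ratio itself overlapped between groups. A second XTH6 gene (CmoCh16G007900, chromosome 16, 4006571 to 4008695, minus strand) has no XTH neighbour. It was at 35.4, 29.1 and 34.8 FPKM in SCK and at 35.3, 208 and 171 FPKM in SR. SR replicate 1 was inside the SCK range and the other SR libraries were far above it. It was not called (log2 fold change 1.90 ± 0.56 SE, adjusted p = 0.0636 by edgeR), but was called without SR replicate 1 (0.00601) and by DESeq2 (0.00136). Without any other single library edgeR did not call it (adjusted p = 0.124 to 0.181). Both XTH6 genes ranked the libraries of each group alike. Their sequences were not compared, and the handling of reads that match more than 1 gene is not stated. Whether their deposited counts share reads is therefore not known.

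XTH8 (CmoCh13G007450, chromosome 13, 7325174 to 7327026, minus strand) was at 11.8, 10.0 and 10.6 FPKM in SCK and at 20.3, 47.2 and 50.5 FPKM in SR. The groups did not overlap. The log2 fold change was 1.71 ± 0.31 SE (adjusted p = 0.0202 by edgeR). It missed the threshold without SCK replicate 2 (0.0572), SCK replicate 3 (0.0952) or SR replicate 3 (0.0698). Its model overlaps a gene on the other strand, and the use of strand in counting is not stated, so reads of the pair may not have been kept apart.

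XTH5 (CmoCh14G010860, chromosome 14) was at 17.6, 10.4 and 12.3 FPKM in SCK and at 13.9, 46.7 and 44.3 FPKM in SR. As for XTH6 on chromosome 16, SR replicate 1 was inside the SCK range. It was not called with all libraries (log2 fold change 1.22 ± 0.44 SE, adjusted p = 0.106 by edgeR) and was called without SR replicate 1 (0.0169). Without any other single library edgeR did not call it (adjusted p = 0.112 to 0.270). XTH10 (CmoCh16G003160, chromosome 16) was scarce, at 1.43, 1.41 and 1.73 FPKM in SCK and at 5.22, 3.21 and 2.61 FPKM in SR. Here SR replicate 1 was the highest library, and the groups did not overlap. Its log2 fold change of 1.14 ± 0.33 SE missed the threshold (adjusted p = 0.0637 by edgeR) and passed it by limma (0.0495), DESeq2 (0.0141) and edgeR without TMM factors (0.0430).

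In Arabidopsis XTH9 is known for its expression at the shoot apex. None of the 3 tested XTH9-like genes was called, and in all 3 the SR replicates ranked 2, 3, 1 from high to low. The most abundant (CmoCh02G001470, chromosome 2) was at 97.4, 16.9 and 43.6 FPKM in SCK and at 12.4, 136 and 40.6 FPKM in SR. Its range within each group was far wider than the difference between the groups (log2 fold change 0.06 ± 0.89 SE, adjusted p = 0.970 by edgeR, with a 95% interval of -1.68 to 1.80). A second (CmoCh19G009750, chromosome 19) was at 34.4, 17.7 and 22.9 FPKM in SCK and at 20.9, 100 and 45.3 in SR (log2 fold change 0.97 ± 0.53 SE, adjusted p = 0.243 by edgeR). The third (CmoCh20G006030, chromosome 20) stayed between 0.32 and 1.97 FPKM in all libraries (log2 fold change -0.92 ± 0.62 SE, adjusted p = 0.34 by edgeR). The fourth gene of that name, on chromosome 1, had 4 deposited counts in SCK replicate 1 and 0 in the other libraries.

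The name XTH2-like stands on 5 tested genes, and 3 of them lie in a row on chromosome 19 within 6787 bases, all on the plus strand. The first (CmoCh19G010930) was at 7.15, 6.16 and 6.52 FPKM in SCK and at 2.42, 12.1 and 15.1 in SR. The second (CmoCh19G010940) was at 1.26, 4.46 and 4.15 FPKM and then at 3.41, 8.93 and 10.5. The last (CmoCh19G010950) was at 4.51, 1.81 and 2.49 FPKM and then at 1.45, 12.5 and 22.8. In each of the 3 genes SR replicate 1 was inside or below the SCK range and SR replicates 2 and 3 were above it. With all libraries their log2 fold changes were 0.42 ± 0.56, 1.07 ± 0.54 and 1.89 ± 0.86 SE, in chromosome order, and edgeR called none (adjusted p = 0.639, 0.212 and 0.176). Without SR replicate 1 the first and the last were called (0.0318 and 0.0274). Leaving out any other single library, edgeR called none of the 3.

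The other XTH2-like genes are a pair on chromosome 8, where a model of 656 bases on the minus strand lies inside one on the plus strand. The outer gene (CmoCh08G001080) was at 11.96, 16.2 and 15.5 FPKM in SCK and at 16.7, 17.8 and 18.9 in SR. The SR values, not scaled by TMM factors, were all higher, by a small step (log2 fold change 0.16 ± 0.13 SE, adjusted p = 0.435 by edgeR). The inner gene (CmoCh08G001090) was at 0.64 to 2.13 FPKM in SCK and 1.42 to 2.87 in SR, with log2 fold change 0.58 ± 0.54 SE and adjusted p = 0.491 by edgeR. Reads of the pair cannot be told apart if strand was not used.

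In subfamily II, 5 XTH genes stand within 14073 bases of chromosome 10, and 6 within 13081 bases of chromosome 11. Both rows hold, in the same order, an XTH23 and another XTH23 on the minus strand, then an XTH22-like and an XTH23 on the plus strand. Arabidopsis XTH22 is known as a touch-induced gene (TCH4). On chromosome 10 the XTH22-like gene (CmoCh10G004370, 1989865 to 1991674) was the most abundant XTH gene of the table. It was at 126, 356 and 273 FPKM in SCK and at 238, 283 and 281 FPKM in SR. SCK replicates 1 and 2 were the lowest and highest libraries, and the SR libraries lay between them. The log2 fold change was -0.04 ± 0.33 SE (adjusted p = 0.949 by edgeR), with a 95% interval of -0.68 to 0.60, and its sign turned with the scaling (0.08 without TMM factors).

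On either side of it stand XTH23 genes. The first of the row (CmoCh10G004350, 1982842 to 1984149) was at 40.3, 18.5 and 27.5 FPKM in SCK and at 29.1, 113 and 146 in SR, with SR replicate 1 inside the SCK range. It was not called (log2 fold change 1.57 ± 0.57 SE, adjusted p = 0.105 by edgeR, and 0.0213 without SR replicate 1). Without any other single library its adjusted p by edgeR was 0.114 to 0.286. The next XTH gene after the XTH22-like gene is CmoCh10G004390 (1993881 to 1995089), with 1 other gene of the table between them. This XTH23 was at 15.3, 31.2 and 25.9 FPKM in SCK and at 59.9, 67.4 and 95.9 in SR. These groups did not overlap, and SR replicate 1 was well above the SCK libraries. It rose by a log2 fold change of 1.50 ± 0.28 SE (adjusted p = 0.0202 by edgeR), a call lost without SCK replicate 3 (0.0911) or SR replicate 3 (0.0671). The last gene of the row (CmoCh10G004400, a short model named after a Nelumbo nucifera protein) was at 16.5, 4.12 and 7.34 FPKM in SCK and at 0, 9.42 and 11.02 in SR, and was not called (log2 fold change -0.64 ± 1.28 SE, adjusted p = 0.769 by edgeR). The remaining one (CmoCh10G004360), between the first gene and the XTH22-like gene, did not exceed 0.21 FPKM.

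On chromosome 11 only the XTH22-like gene (CmoCh11G004020, 1986926 to 1988597) was abundant enough to test. It was at 13.2, 34.6 and 22.5 FPKM in SCK and at 20.3, 64.4 and 72.6 in SR. SR replicate 1 was inside the SCK range, and the gene was not called (log2 fold change 1.02 ± 0.49 SE, adjusted p = 0.197 by edgeR, and 0.0516 without SR replicate 1). Its counterpart on chromosome 10 was 9.55, 10.3 and 12.1 times as abundant in SCK and 11.7, 4.39 and 3.87 times in SR. The XTH23 genes of that row were at most at 1.20 FPKM, and its 2 overlapping XTH22-like models at the start had a count of 0 in each library. XTH26 (CmoCh10G006770), apart from that row on chromosome 10, stayed between 0.78 and 1.73 FPKM in all libraries and was not called. XTH24-like on chromosome 12 and, of subfamily I, an XTH2-like gene on chromosome 10 had a count of 0 in each library. A further pair of subfamily II on chromosome 5 held an XTH22-like gene at 0 and an XTH23 at no more than 0.74 FPKM.

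**Figure D4:**
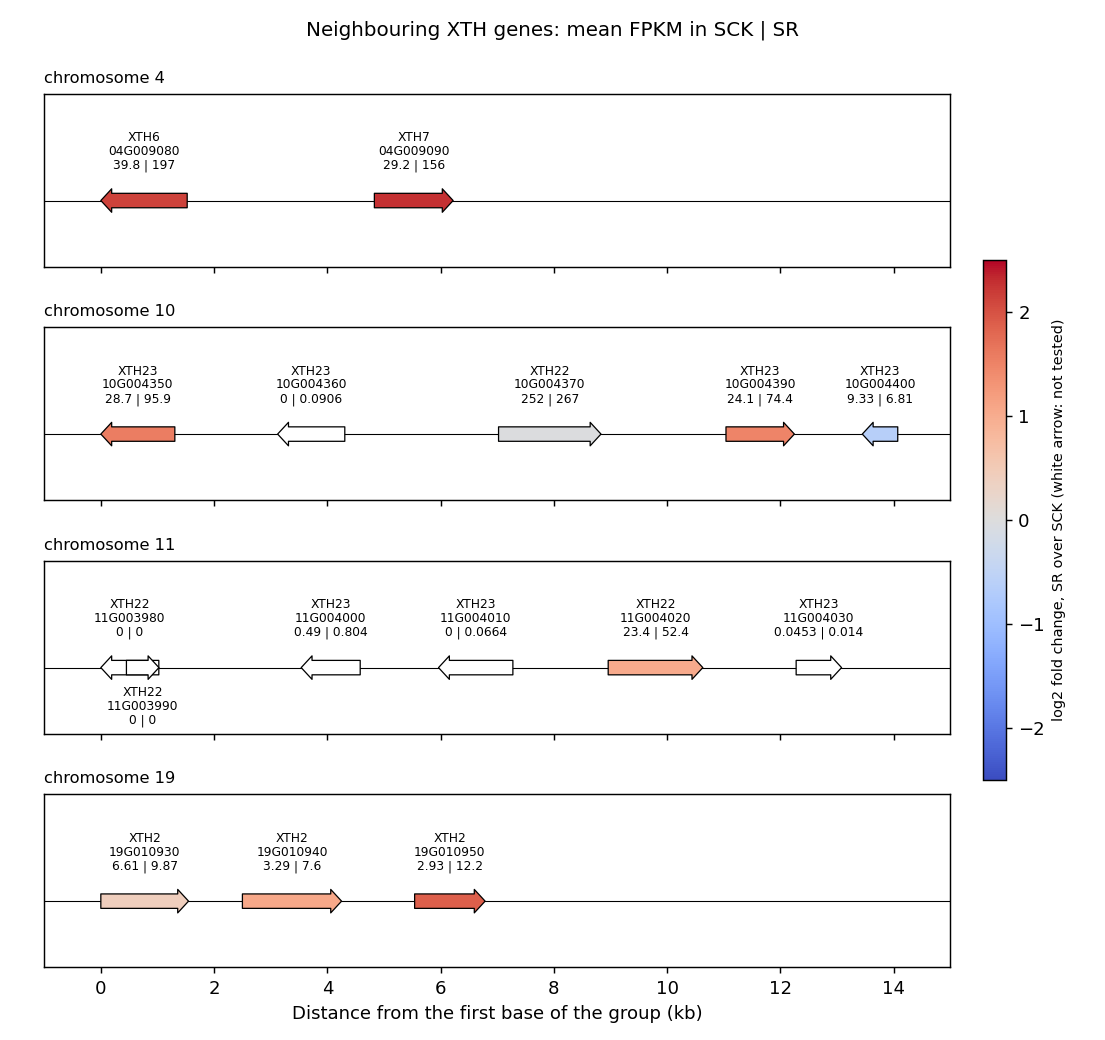
XTH genes of 4 rows drawn to scale from the first base of each row, with arrows for the strand, colour for the log2 fold change of SR over SCK (white: not tested) and mean FPKM in SCK and SR above each gene. The first 4 genes on chromosome 10 and the last 4 on chromosome 11 share the order of numbers and strands, and 4 of 5 genes were tested on chromosome 10 and 1 of 6 on chromosome 11.

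Subfamily IIIA, the numbers 31 and 32, held large spreads within groups. XTH32 on chromosome 13 (CmoCh13G002430) was at 11.4, 106 and 74.2 FPKM in SCK and at 47.9, 4.86 and 35.4 in SR. XTH31-like on chromosome 1 (CmoCh01G005430) was at 1.18, 46.0 and 27.8 FPKM in SCK and at 14.3, 2.65 and 10.6 in SR. In both genes SCK replicate 1 was the lowest SCK library and SR replicate 2 the lowest SR library. Their log2 fold changes, -1.20 ± 0.94 and -1.53 ± 1.10 SE, were not called (adjusted p = 0.414 and 0.374 by edgeR). XTH32 on chromosome 14 (CmoCh14G002200) was steady in SCK, at 58.7, 59.9 and 59.5 FPKM, and at 43.6, 81.7 and 46.3 in SR, on either side of them. It was not called with all libraries (log2 fold change -0.20 ± 0.22 SE, adjusted p = 0.559 by edgeR), and passed without SR replicate 2, at a log2 fold change of -0.52 (0.0391). The other genes of IIIA, with means of 1.34 to 21.4 FPKM, were not called either. They include an overlapping XTH31-like pair on opposite strands of chromosome 2.

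The XTH9-like gene on chromosome 2 ran the other way through the libraries. From high to low its SCK replicates ranked 1, 3, 2 and its SR replicates 2, 3, 1. XTH32 on chromosome 13 and XTH31-like on chromosome 1 ranked 2, 3, 1 in SCK and 1, 3, 2 in SR. The first order held in 6 of 33 XTH genes, 18.2% (7.12% of all tested genes). They were both XTH6 genes, XTH5, 2 XTH9-like genes and XTH28 on chromosome 4. The mirrored order held in 3, 9.1% (6.6% of all tested genes), all of subfamily IIIA. These orders were picked after the values were seen and have no test.

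In subfamily IIIB, XTH28 on chromosome 4 (CmoCh04G022400, 16755636 to 16758293, plus strand) was the second most abundant XTH gene. In Arabidopsis XTH28 is known for its part in stamen filament growth. It was at 297, 282 and 284 FPKM in SCK and at 95.7, 155 and 108 in SR. The SCK libraries were close together and the SR libraries all far below them. It fell by 1.41 on the log2 scale (SE 0.18, adjusted p = 0.0118 by edgeR), and missed the threshold without SCK replicate 3 (0.0749). A second XTH28 (CmoCh15G009230, chromosome 15) was at 25.8, 22.4 and 25.8 FPKM in SCK and at 20.4, 18.8 and 10.8 in SR. Its groups did not overlap, but it was not called (log2 fold change -0.70 ± 0.24 SE, adjusted p = 0.0978 by edgeR and 0.0436 by DESeq2). The third (CmoCh04G000350, chromosome 4) was at 4.91 to 5.96 FPKM in SCK and 5.13 to 5.91 in SR. Its log2 fold change was -0.17 with a 95% interval of -0.47 to 0.13, so a fall as large as that of the abundant XTH28 lies outside the interval.

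XTH30 on chromosome 19 (CmoCh19G002280, 1551956 to 1556025) was scarce, at 1.80, 1.213 and 2.46 FPKM in SCK and at 0.58, 0.79 and 0.40 in SR. Its log2 fold change was -1.75 ± 0.39 SE (adjusted p = 0.0322 by edgeR). Because it reached the minimum FPKM only in SCK, it could enter the test only by being higher there, as said above. The call was lost without each library other than SCK replicate 2 (0.0533 to 0.124) and by limma (0.0527). A second XTH30 (CmoCh02G016830, chromosome 2) overlapped between groups, at 1.64 to 2.39 FPKM in SCK and 0.62 to 3.35 in SR. XTH33 on chromosome 18 (CmoCh18G008090) went the other way. In Arabidopsis this protein has been placed at the plasma membrane. It was at 1.56, 8.34 and 5.69 FPKM in SCK and at 24.6, 11.7 and 48.0 in SR. The groups did not overlap, and the log2 fold change was 2.33 ± 0.69 SE. The spread kept it from being called (adjusted p = 0.0653 by edgeR, 0.0555 to 0.188 without 1 library, and 0.00111 by DESeq2). Its model overlaps a gene on the other strand. The overlapping XTH33 pair on chromosome 4 did not exceed 0.23 FPKM.

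Other genes of the pathway were taken by product names for enzymes that build xyloglucan or trim its side chains. That list held 80 genes, of which 51 were tested. In SR, 12 of these rose and 5 fell, 23.5% and 9.8%, where 7.2% and 7.16% of all tested genes did. Their median log2 fold change was 0.53, the value of CmoCh04G024940. That gene, CmoCh15G009410, CmoCh14G014980 and CmoCh16G003590 reached the minimum FPKM only in SR. They could enter the test only by being higher there, so their positive values (0.53, 1.68, 0.50 and 0.19) are no independent result. None of them was called, but the median rests in part on this filter. Without 1 library edgeR called 0 to 18 rises and 0 to 6 falls of them, the zeros without SCK replicate 3 (26 at an unadjusted p under 0.05). In that setting DESeq2 called 16 rises and 5 falls and limma 0 and 0.

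Counts of enzymes from here on are of tested genes of the list, beside 7.2% rises and 7.16% falls among all tested genes. Shares of classes this small rest on few calls. On the synthesis side, the xyloglucan glycosyltransferases, which make the glucan backbone, had 2 rises and 0 falls among 8. They were number 12 (CmoCh12G005510), at 4.16 ± 0.59 FPKM in SCK and 11.5 ± 3.68 in SR (SD, n = 3), and number 5 (CmoCh09G005240), at 1.28 ± 0.12 and 4.18 ± 1.68. All 8 had a positive log2 fold change, with a median of 1.16, as had 12054 of all 23509 tested genes, with a median of 0.014. Among 4 xylosyltransferases, which add the xylose side chains, xyloglucan 6-xylosyltransferase 2-like (CmoCh14G016570) rose, from 23.0 ± 1.96 to 43.7 ± 10.1 FPKM (log2 fold change 0.78 ± 0.17 SE, adjusted p = 0.0275 by edgeR). Of 8 galactosyltransferases, which extend side chains with galactose, 1 rose and 1 fell (12.5% each), both named GT14. CmoCh08G008460 was at 0.95 ± 0.12 and 2.72 ± 0.95 FPKM, and CmoCh06G016610 at 4.11 ± 0.93 and 1.25 ± 0.16. Of 2 tested genes named ALTERED XYLOGLUCAN 4, which is known in Arabidopsis for xyloglucan acetylation, 1 rose (CmoCh04G003070), from 1.62 ± 0.35 to 5.01 ± 1.99 FPKM. Among 3 fucosyltransferases, which add the terminal fucose, the smallest adjusted p by edgeR was 0.129. The GT14 gene that rose, this acetylation gene and the alpha-xylosidase below were chosen for mention after their values were seen.

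Among the trimming enzymes, alpha-xylosidase 1-like (CmoCh04G021510), of a kind that removes xylose from xyloglucan ends, rose from 3.29 ± 0.49 to 15.4 ± 10.3 FPKM (log2 fold change 2.07 ± 0.47 SE, adjusted p = 0.0339 by edgeR). Of 5 alpha-L-fucosidases, 2 rose (40.0%) and 0 fell. Beta-galactosidases, many of which act on other wall polymers, held 4 rises and 4 falls among 19. That is 21.1% each, against 7.2% and 7.16% of all tested genes. The 2 most abundant genes of the list are among these falls. A beta-galactosidase-like gene (CmoCh11G007030) was at 485, 361 and 430 FPKM in SCK and at 47.0, 58.5 and 25.7 in SR, the highest mean of the list. It fell by 3.43 on the log2 scale (SE 0.33, adjusted p = 0.00942 by edgeR). Beta-galactosidase 1 (CmoCh14G012990) fell by 2.35 (SE 0.44, adjusted p = 0.0208), from 336 ± 118 to 73.8 ± 35.8 FPKM. Beta-galactosidase 3 (CmoCh07G004530) rose from 3.52 ± 1.14 to 27.8 ± 7.51 FPKM (log2 fold change 2.85 ± 0.28 SE, adjusted p = 0.00942 by edgeR). Also called were beta-galactosidase 3-like (CmoCh03G007380), up from 6.91 ± 3.22 to 40.2 ± 20.5 FPKM, and 1-like (CmoCh01G000680), up from 8.76 ± 0.65 to 16.9 ± 3.47. Beta-galactosidase 9 (CmoCh06G012430) fell from 56.5 ± 6.22 to 27.3 ± 7.11 FPKM. The summed FPKM of the list was 1418, 1054 and 1202 in SCK and 628, 1040 and 898 in SR, and its groups did not overlap. Most of that sum was beta-galactosidases, at 1198, 844 and 984 FPKM in SCK and 389, 653 and 518 in SR. No other class of the list had a lower sum in each SR library. The sums of alpha-L-fucosidases and of galactosyltransferases overlapped between groups. Those of the remaining classes were higher in each SR library than in any SCK library.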

How the data were processed

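The authors deposited whole-number counts and FPKM for each gene and library in 1 table, per the file headers. HISAT and StringTie are named, per the submitters' processing notes, without role or version. Libraries were stranded, paired-end and poly(A)-selected, per the labels' protocols. The sources used here do not name the build, the annotation, strand use in counting or the handling of shared reads. Values of close copies and overlapping genes are therefore uncertain. A further 6 columns match no sample and were not used. The count 4 occurred 1350 times, against 567 for 3 and 516 for 5, so 1 read pair may be worth about 4 counts. The deposited FPKM reads 0.0001 wherever the count is 0, and was read as 0. Floors cover counting error only.

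The counts were tested with edgeR 4.0.16 (glmQLFit, glmQLFTest, TMM factors, R 4.3.3), comparing SR with SCK and with no covariate, on 23509 genes that reached FPKM 1 in 3 or more libraries. P-values were adjusted by Benjamini-Hochberg over these, with a threshold of 0.05. SE is the log2 fold change over the root of F, and 95% intervals are 1.96 SE. That normal multiple is too small for a test on 6 libraries, so the 95% is nominal and the intervals are too narrow. For CmoCh11G004020 the interval was 0.056 to 1.99, above 0, at an unadjusted p of 0.0768 by edgeR. Alternatives were DESeq2 1.42.0, limma 3.58.1 on log2(FPKM + 1), other filters and scalings, a replicate block and leaving out each library. Scripts were tested on simulated data.

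XTH genes were given in full when called, among the 6 most abundant, or in a row (consecutive starts within 50000 bases), and further members chosen after their values were seen. Up to 10 called genes of the pathway list were named by smallest adjusted p, with its most abundant gene. Members and lists were chosen with earlier results of these data known. The pattern for B-type cyclins also matched a calcyclin-binding protein, which was left out. No replicates were identical or differed by less than sampling noise.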

Additional observations from a re-analysis of the deposited data

How the results depend on the processing

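All tested genes called numbered 3375 (edgeR), and 6026 by DESeq2. XTH rises were 4, and 10 by DESeq2; rises of the xyloglucan synthesis and trimming list were 12, and 21 by DESeq2. XTH falls were 2, and 3 by DESeq2 and 1 by limma. At an FPKM of at least 5, where 23 XTH genes remained to be tested, there was 1 fall. Leaving out 1 library gave 0 to 3437 genes called, 0 to 9 XTH rises, 0 to 2 XTH falls, and 0 to 18 rises and 0 to 6 falls of the list. The libraries behind the lowest counts are SCK replicate 3 (0 genes) and SR replicate 3 (542 genes, 1 XTH rise and 1 fall). By limma without SCK replicate 3, an alternative added after the data were seen, 8 genes, 0 XTH rises and falls and 0 rises and falls of the list were called (8 XTH genes at an unadjusted p under 0.05). By DESeq2 without SCK replicate 3, also added then, there were 6 XTH rises and 2 falls. Counts divided by 4 and no filter changed no XTH call. The median of tested XTH genes stayed between 0.24 and 0.57, and the log2 ratio of summed FPKM between 0.34 and 0.77. The cause of these differences was not tested.

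Deviations of same-numbered libraries from their group means had correlations of -0.15, -0.25 and 0.09 for numbers 1, 2 and 3. With means of 3 libraries these values cannot settle whether the numbers pair the libraries. With a replicate block, edgeR called 0 genes (6564 at an unadjusted p under 0.05), 0 XTH rises and falls (11 at that level) and 0 rises and falls of the list.

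Signs turned only in XTH genes that were not called. For CmoCh10G004370 the log2 fold change was 0.083 without TMM factors, 0.21 by limma, 0.07 with the block, 0.008 by DESeq2 without SCK replicate 3, 0.33 by limma without SCK replicate 3, and -0.35 to 0.28 without 1 library. For CmoCh02G001470 it was -0.014 by limma, -0.18 with the block, -0.091 by DESeq2 without SCK replicate 3, and -1.15 to 0.91 without 1 library. For CmoCh04G000350 it was 0.022 by limma without SCK replicate 3. Ranges without 1 library were -0.96 to 0.27 for CmoCh02G016830, -0.041 to 0.49 for CmoCh06G003900, -1.20 to 0.11 for CmoCh10G004400, -0.53 to 0.05 for CmoCh10G006770 and -0.04 to 0.87 for CmoCh19G010930.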
